A study of Mus musculus with 6 samples.

Results

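The genes of complex III, cytochrome c, complex IV and the ATP synthase of the mitochondrial inner membrane were examined in hearts taken at postnatal day 6 from male FVB mice (FVB/N in the methods), 3 hSRY-ON and 3 hSRY-OFF. The members were all genes on the array whose symbol starts with Uqcr, Cyc1, Cycs, Atp5 or with Cox4, Cox5, Cox6b, Cox6c, Cox7b, Cox7c or a Cox number from 10 to 19, and they amounted to 40 of 18138 genes, with 47 of 25697 probes. All hSRY-ON mice carried the Signalox-hSRY transgene, a single copy at the H11 locus, in which the ubiquitously active CAG promoter drives a bicistronic human SRY and EGFP message once Cre has removed the DsRed2 cassette in front of it. The Cre came from the oocyte of a Ddx4-Cre mother, and the hSRY-ON pups taken for the arrays did not themselves carry Ddx4-Cre. The methods define hSRY-OFF mice as Signalox-hSRY carriers without recombination, whereas the control littermates are described elsewhere as having Ddx4-Cre only or neither transgene, so whether the control hearts held the silent transgene is uncertain. The line rests on 1 integration, and the level of the human message was not measured here.

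Complex III passes electrons from ubiquinol to cytochrome c, a small soluble carrier in the intermembrane space, and complex IV (cytochrome c oxidase, COX) passes them from cytochrome c to oxygen. Both pump protons out of the matrix, and the ATP synthase (complex V) lets the protons return through its membrane part, Fo, and uses the rotation of the c ring to make ATP in its catalytic head, F1. The working heart draws nearly all of its ATP from this system, and its content of these complexes grows after birth. The subunits studied here are encoded in the nucleus, while the catalytic core of complex IV, cytochrome b of complex III and parts of Fo come from mitochondrial DNA, for which no probe was matched.

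On these BeadChip arrays the brightness of a bead reports the amount of 1 transcript in 1 colour, and levels are given as background-corrected, quantile normalized log2 intensities. With a detection p-value under 0.05 as the limit, the arrays detected 12138 to 13172 probes, and that of hSRY-OFF replicate 3 was the dimmest. Detection on 3 or more of the 6 arrays was required for a test, which kept 41 member probes of 36 member genes, out of 9660 tested genes in all, and the brightest tested probe stands for a gene. Uqcrq, Cox7b2 and Atp5k were detected on no array and Cox11 on 1 hSRY-OFF array, and these 4 genes were not tested. Cardiomyocyte genes were present, with Myh6, Tnni3, Myl2 and Pln detected on all 6 arrays. Changes are log2 fold changes, hSRY-ON minus hSRY-OFF, with their standard error (SE) from limma's moderated test, and a gene was called at a Benjamini-Hochberg adjusted p-value, over all tested probes, under 0.05. The p-values weigh a change against the spread between the 3 hearts of each group, which the moderated test draws toward the typical spread of all tested probes. For genes whose hearts lay close together, the SE is thus wider than their own values give.

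Of the 36 tested member genes, 14 were lower in hSRY-ON hearts (38.9%), against 13.9% of all tested genes, and 1, Cox19, was higher, against 14.9% of all tested genes. The lower genes were Cyc1 and Uqcrc1 of complex III, Cycs, the complex IV subunit gene Cox6c, the assembly gene Cox10, 7 genes of the ATP synthase, and Atp5s and Atp5sl, which carry its name without being core subunits. All 3 hSRY-ON hearts lay below all 3 hSRY-OFF hearts in 27 member genes (22.0% of all tested genes did so) and above them in 1 (24.9% of all tested genes). The median log2 fold change of the tested members was -0.33, beside 0.0026 for all tested genes. In these bulk samples, fewer cells of a type and less RNA per cell cannot be told apart. The number of lower members depended on the processing, with 23 when no background was corrected or when the variance was fitted with an intensity trend, and 12 to 15 when 1 heart was left out.

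**Figure D1:**
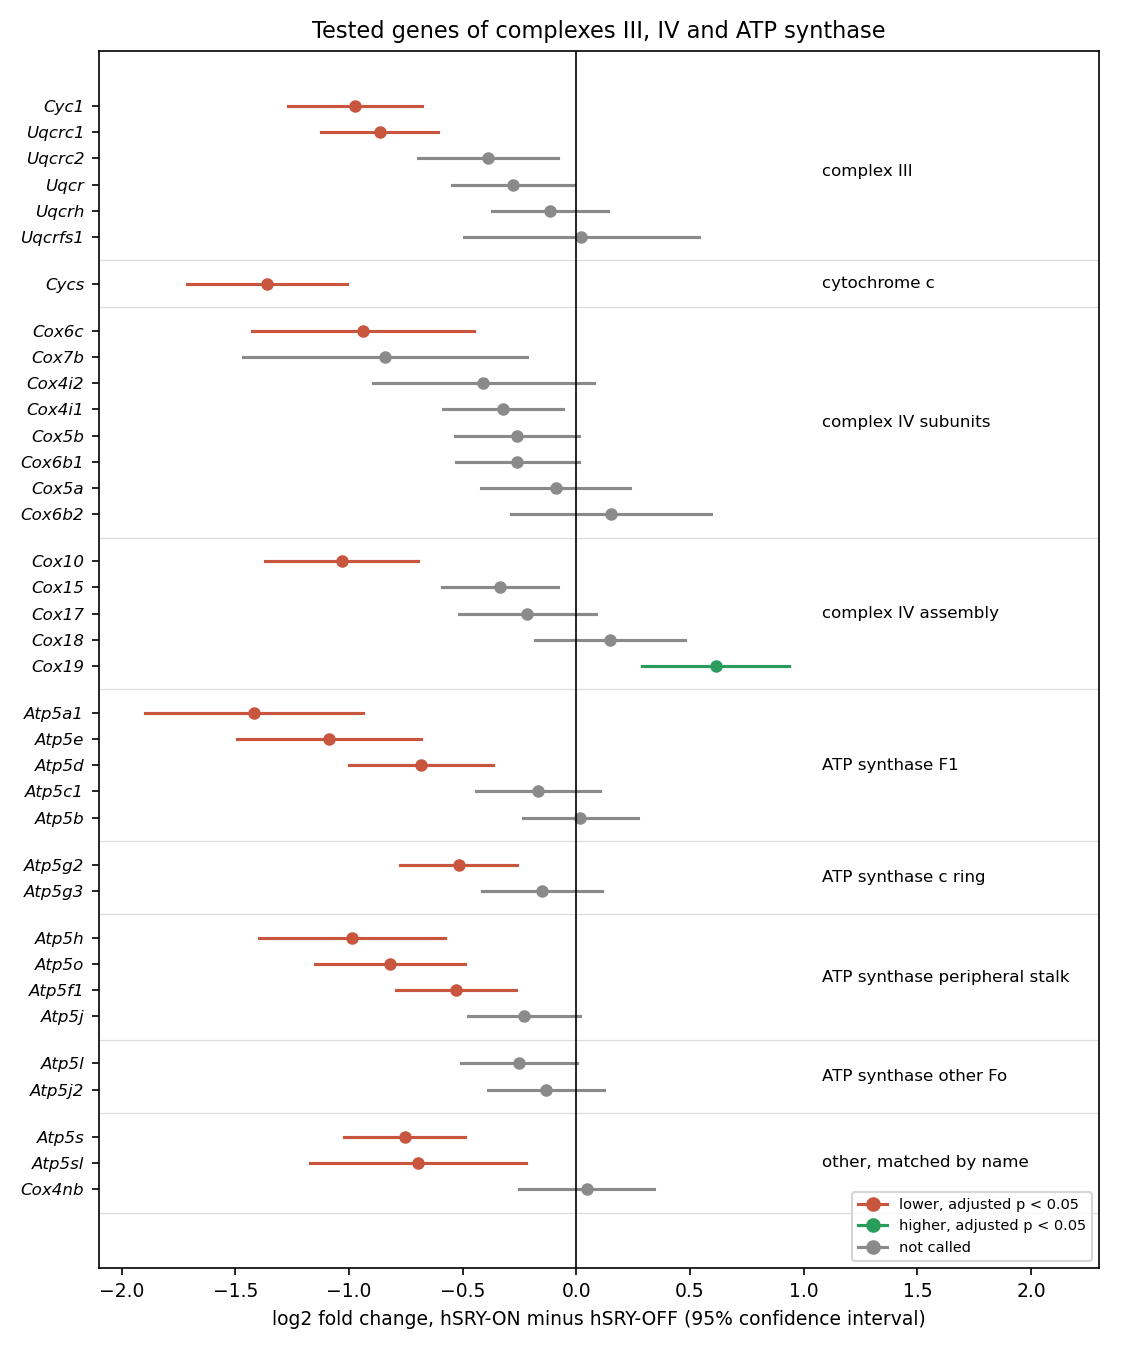
Log2 fold change (hSRY-ON minus hSRY-OFF, horizontal axis) of the 36 tested member genes, ordered within their role groups, with 95% confidence intervals from limma (n = 3 hearts in each group). Red marks the 14 genes called lower, green the 1 gene called higher and grey the 21 genes not called. Most points lie left of 0, and the largest decreases are found in several groups and not in 1 alone.

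The promoters of 5 genes on which the results turn are printed here, because members of several complexes were lower together. They are Cycs, the gene with the largest called decrease in complex III, in complex IV and in the ATP synthase among those with a promoter in the RefSeq table used (Uqcrc1, Cox10 and Atp5e), and Cox19, the member called higher. Each sequence runs from 250 bases before to 50 bases after the annotated start on the strand of the gene, in build GRCm38.p6, and capitals mark matches, on either strand, to the letters of NRF1 (GCGCANGCG), GABPA (CCGGAAG), ERR (TCAAGGTCA) or YY1 (AAGATGGCG), factors known to bind promoters of nuclear genes for mitochondrial proteins. Cycs lies at chr6:50566520-50566819 on the minus strand, Uqcrc1 at chr9:108936398-108936697 on the plus strand, Cox10 at chr11:64079423-64079722 on the minus strand, Atp5e at chr2:174464052-174464351 on the minus strand and Cox19 at chr5:139345117-139345416 on the minus strand.
Cycs: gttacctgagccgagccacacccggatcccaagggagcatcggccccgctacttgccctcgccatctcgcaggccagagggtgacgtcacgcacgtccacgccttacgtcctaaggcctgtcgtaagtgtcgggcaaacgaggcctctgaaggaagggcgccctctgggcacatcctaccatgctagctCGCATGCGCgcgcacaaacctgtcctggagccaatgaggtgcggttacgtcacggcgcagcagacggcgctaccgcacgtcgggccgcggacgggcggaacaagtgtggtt
Uqcrc1: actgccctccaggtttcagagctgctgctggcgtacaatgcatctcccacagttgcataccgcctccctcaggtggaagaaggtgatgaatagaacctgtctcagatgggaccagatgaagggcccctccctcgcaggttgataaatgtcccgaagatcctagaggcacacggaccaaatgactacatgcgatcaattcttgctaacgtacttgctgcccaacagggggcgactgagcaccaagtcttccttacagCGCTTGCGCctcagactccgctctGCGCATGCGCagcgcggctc
Cox10: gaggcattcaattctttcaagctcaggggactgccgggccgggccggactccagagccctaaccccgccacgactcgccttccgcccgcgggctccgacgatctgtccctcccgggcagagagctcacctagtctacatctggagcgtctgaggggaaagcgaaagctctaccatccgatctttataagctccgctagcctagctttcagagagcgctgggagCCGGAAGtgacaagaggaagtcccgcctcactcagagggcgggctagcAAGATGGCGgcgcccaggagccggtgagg
Atp5e: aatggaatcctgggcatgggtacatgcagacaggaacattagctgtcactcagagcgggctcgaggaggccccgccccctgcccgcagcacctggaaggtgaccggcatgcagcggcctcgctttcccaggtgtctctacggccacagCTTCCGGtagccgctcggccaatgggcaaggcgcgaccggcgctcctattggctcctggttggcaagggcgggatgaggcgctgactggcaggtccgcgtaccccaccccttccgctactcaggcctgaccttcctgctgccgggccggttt
Cox19: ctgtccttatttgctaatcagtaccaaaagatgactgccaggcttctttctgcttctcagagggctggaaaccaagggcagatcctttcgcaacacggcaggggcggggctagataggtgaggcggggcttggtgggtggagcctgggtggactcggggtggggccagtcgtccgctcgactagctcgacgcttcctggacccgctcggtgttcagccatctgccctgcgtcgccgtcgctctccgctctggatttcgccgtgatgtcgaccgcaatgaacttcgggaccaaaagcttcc

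The capitals are an NRF1 match in Cycs, 3 NRF1 matches in Uqcrc1, of which 2 overlap on opposite strands, a GABPA and a YY1 match in Cox10, and a GABPA match in Atp5e, while Cox19 holds none of these letters. RefSeq promoters outside chromosome 18 were read for 30 of the 40 member genes, 34 promoters in all, since some genes have more than 1 start. NRF1 letters were present in 10 of these (29.4%) and in 6.25% of all 32851 promoters of the same length. The latter count did not leave out chromosome 18. GABPA letters were present in 10 member promoters (29.4%, against 8.86% of all), and YY1 letters in 5 (14.7%, against 1.40%). The Atp5sl promoters overlap and hold the same YY1 site, which is counted in each, also among the lower members below. The ERR letters occurred in 1 member promoter (2.94%, against 0.423%). Letters bound by SRY and the related SOX proteins (AACAAT, not marked by capitals) occurred in 1 member promoter, that of Cox6b1 (2.94%, against 10.7%). Of the 13 promoters of lower members, NRF1 letters were in 5, GABPA letters in 3, YY1 letters in 3, and ERR and SRY letters in 0. These matches describe the sequences only.

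Complex III had 6 tested genes, of which 2 were lower (33.3%, beside 13.9% of all tested genes). In 5 all hSRY-ON hearts lay below all hSRY-OFF hearts (beside 22.0% of all tested genes). The median log2 fold change was -0.33. Without background correction, or with an intensity trend, 4 were lower. The level of Cyc1, the cytochrome c1 that hands electrons to cytochrome c, was 14.29, 14.23 and 14.31 in hSRY-OFF replicates 1 to 3 and 13.16, 13.27 and 13.48 in hSRY-ON replicates 1 to 3. It fell by 0.97 on the log2 scale (SE 0.13, adjusted p = 0.00164, limma), to 50.9% of the hSRY-OFF level, and the gap between the groups was wider than the spread within either. Uqcrc1 encodes a core protein that faces the matrix and holds the complex together. Its level was 14.27, 14.24 and 14.33 in hSRY-OFF and 13.45, 13.35 and 13.44 in hSRY-ON hearts. The change was -0.87 (SE 0.11, adjusted p = 0.0015), the groups did not overlap, and the hearts within each group lay close together.

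The other genes of complex III were not called. The second core protein gene, Uqcrc2, changed by -0.39 (SE 0.13, adjusted p = 0.0643) and the small subunit gene Uqcr (now Uqcr11) by -0.28 (adjusted p = 0.112), both without overlap between the groups. Uqcrh encodes the acidic hinge protein that helps cytochrome c1 meet cytochrome c. The level of Uqcrh was 14.82, 14.93 and 14.84 in hSRY-OFF and 14.72, 14.76 and 14.77 in hSRY-ON hearts, a change of -0.12 (SE 0.11, adjusted p = 0.464). All hSRY-ON hearts were lower, by a small margin. For Uqcrfs1, the Rieske iron-sulfur protein, the levels were 5.62, 4.90 and 5.36 against 5.04, 5.62 and 5.28, and its probe was detected on 1 hSRY-OFF and 2 hSRY-ON arrays only. The change of Uqcrfs1 was 0.02 (95% confidence interval -0.49 to 0.54), and the dimness of its probe limits what could be detected.

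Cytochrome c was lower in hSRY-ON hearts, by an amount that depended on the background correction. Cycs, the somatic form of cytochrome c, was at 8.30, 8.36 and 7.92 in hSRY-OFF hearts and at 6.81, 6.75 and 6.95 in hSRY-ON hearts. The change was -1.36 (SE 0.15, adjusted p = 0.000916), to 39.0% of the hSRY-OFF level, with every hSRY-ON heart far below every hSRY-OFF heart. Without background correction the change of this dim probe was -0.78, and the call remained. The second probe of Cycs was at 6.25, 7.20 and 5.80 against 5.34, 5.10 and 5.23. That probe was not above background on any hSRY-ON array, which gives at least a 2.12-fold decrease on the background-corrected intensities (adjusted p = 0.0301), and 5 alternatives ended its call, among them the omission of any hSRY-ON heart and the intensities without background correction (-0.40). Of its partners, Hccs, the enzyme that attaches heme to cytochrome c, was also lower, by a log2 fold change of -0.51 (adjusted p = 0.0163).

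**Figure D2:**
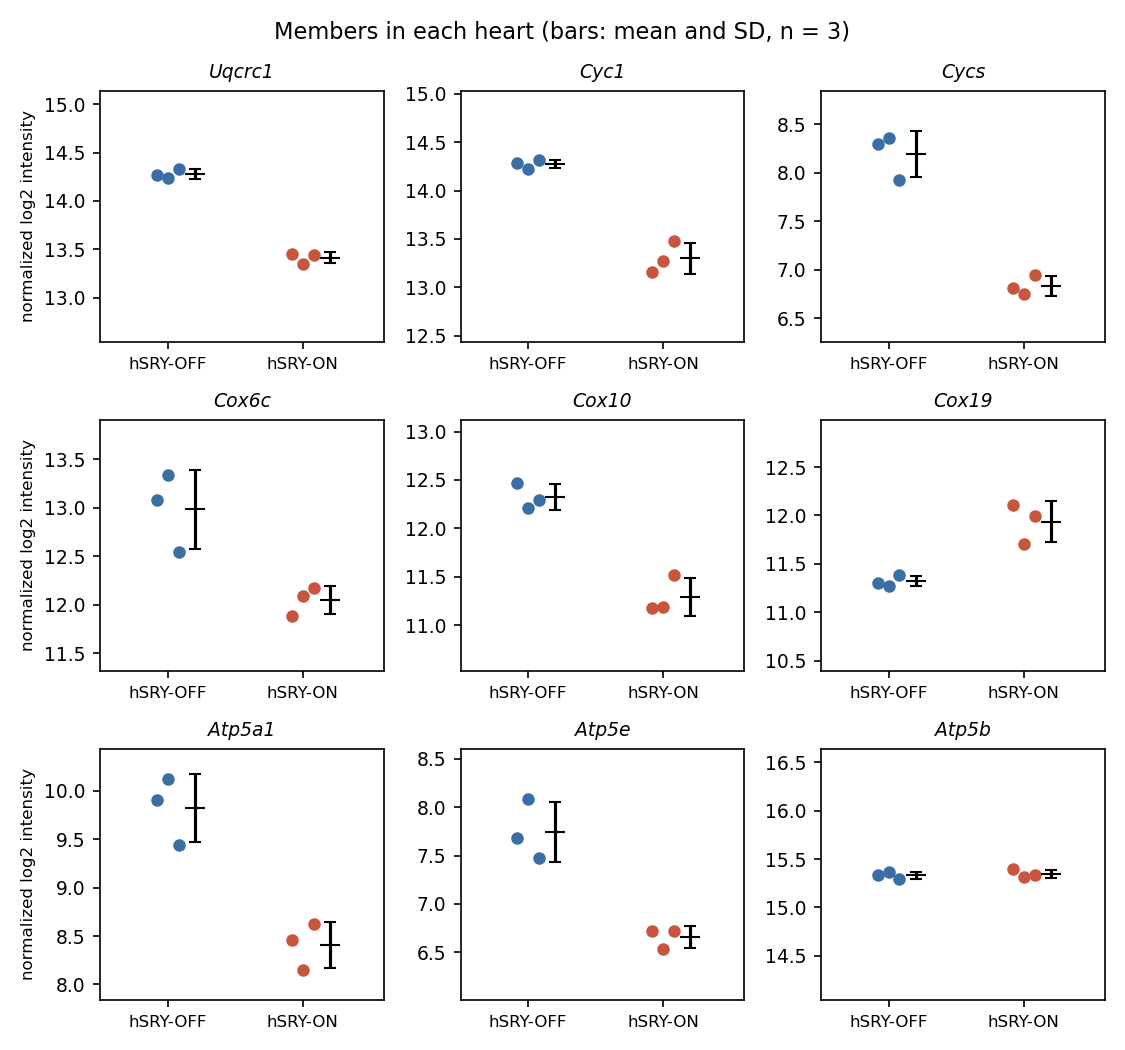
Normalized log2 intensity (vertical axis, the same span in every panel) of 9 member genes in each heart, blue for hSRY-OFF and red for hSRY-ON, with the mean and SD (n = 3) as bars beside the points. The groups do not overlap for 8 of the genes, Cox19 alone among these being higher in hSRY-ON, and the points of Atp5b lie at the same height in both groups.

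Of the 8 tested genes for subunits of complex IV, 1 was lower (12.5%, beside 13.9% of all tested genes), while 7 had a negative value. In 5 all hSRY-ON hearts lay below all hSRY-OFF hearts (beside 22.0% of all tested genes), and the median log2 fold change was -0.29. The count of lower genes depended on the processing more than others. It was 5 without background correction or with an intensity trend, and 0 without hSRY-OFF replicate 1 or hSRY-ON replicate 1. Cox6c encodes a small membrane subunit without catalytic function. The level of Cox6c was 13.08, 13.34 and 12.54 in hSRY-OFF and 11.88, 12.09 and 12.17 in hSRY-ON hearts, a decrease to 52.2% (log2 fold change -0.94, SE 0.21, adjusted p = 0.0146). The hSRY-OFF hearts spread widely, with replicate 3 lowest, yet all lay above the hSRY-ON hearts. The call was lost without hSRY-OFF replicate 1 (-0.89) and without hSRY-ON replicate 1 (-0.86). Cox7b, another small membrane subunit, had 7.91, 8.59 and 7.64 against 7.14, 6.91 and 7.56, a change of -0.84 (SE 0.27, adjusted p = 0.0525). It just missed the threshold, and 10 alternatives placed it past it.

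The isoform pairs of complex IV were read next. Subunit 4 binds ATP and adjusts the turnover of the enzyme, and Cox4i1 is its general form while Cox4i2 is best known from the lung and from low oxygen. The level of Cox4i1 was 14.70, 14.84 and 14.80 in hSRY-OFF and 14.44, 14.53 and 14.40 in hSRY-ON hearts (-0.32, SE 0.11, adjusted p = 0.0705), with no overlap. The level of Cox4i2 was 8.04, 7.82 and 8.27 against 7.22, 7.91 and 7.78 (-0.41, SE 0.21, adjusted p = 0.184), and here the groups overlapped. Subunit 6b joins the monomers of the enzyme to a dimer, and Cox6b2 is its testis form. The brighter probe of Cox6b1 was at 15.21, 15.31 and 15.39 against 14.97, 15.05 and 15.12 (-0.26, SE 0.12, adjusted p = 0.138), and its other probe at 15.21, 15.12 and 15.14 against 14.73, 14.73 and 14.85 (-0.39, SE 0.11, adjusted p = 0.0369). Both probes had the hSRY-ON hearts below the hSRY-OFF hearts, but only the second passed the threshold, and 10 alternatives, including each omission of a heart, ended that call. The tested probe of Cox6b2 was at 7.91, 7.70 and 8.39 against 8.27, 8.02 and 8.18 (0.15, SE 0.19, adjusted p = 0.584), with overlapping groups, and its other probe was not tested.

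Subunits 5a and 5b sit on the matrix side of the enzyme. The level of Cox5a, known for binding thyroid hormone, was 14.50, 14.73 and 14.32 in hSRY-OFF and 14.33, 14.47 and 14.47 in hSRY-ON hearts (-0.09, SE 0.14, adjusted p = 0.668). The groups overlapped, and the value turned to 0.016 without hSRY-OFF replicate 2. Cox5b, which holds a zinc ion, changed by -0.26 (SE 0.12, adjusted p = 0.135) and did not pass the threshold, although the hSRY-ON values all lay beneath the control values.

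Of the 5 tested genes for the assembly of complex IV, 1 was lower (20%, beside 13.9% of all tested genes). Another 1 was higher (beside 14.9% of all tested genes), and the median log2 fold change was -0.22. Cox10 encodes the enzyme that makes heme O, the precursor of the heme A of complex IV. The level of Cox10 was 12.47, 12.21 and 12.29 in hSRY-OFF and 11.18, 11.18 and 11.52 in hSRY-ON hearts, a decrease to 48.9% (log2 fold change -1.03, SE 0.14, adjusted p = 0.00214) with a wide gap between the groups. Cox15 carries out the next step, from heme O to heme A. It was at 10.62, 10.63 and 10.69 against 10.29, 10.38 and 10.26, a change of -0.34 (SE 0.11, adjusted p = 0.0565) that was not called although the groups were apart. The difference between the changes of these enzymes was not tested.

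Copper reaches complex IV through other assembly factors. Cox19, a soluble protein of the intermembrane space that takes part in copper delivery, was at 11.31, 11.28 and 11.38 in hSRY-OFF and at 12.11, 11.70 and 12.00 in hSRY-ON hearts. It was higher by 0.61 (SE 0.14, adjusted p = 0.0153), at 153% of the hSRY-OFF level, the only member called higher, and hSRY-ON replicate 2 was closest to the controls. The call was lost without normalization between arrays (0.51) and without hSRY-OFF replicate 1 (0.61), hSRY-OFF replicate 2 (0.59) or hSRY-ON replicate 1 (0.53), while the value remained positive in each. Cox17, the copper chaperone that loads the other factors, changed by -0.22 (SE 0.13, adjusted p = 0.255) without overlap. Cox18 helps to insert the mitochondrially made subunit 2 into the membrane, and its probes gave 0.15 (SE 0.14, adjusted p = 0.468) and -0.09 (SE 0.18, adjusted p = 0.749). The brighter Cox18 probe was at 10.68, 10.66 and 10.32 against 10.80, 10.71 and 10.60, and the other at 10.10, 9.85 and 9.42 against 9.73, 9.76 and 9.63. On both the groups overlapped, so Cox18 has no direction here.

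The ATP synthase had the most lower genes, 7 of 13 tested (53.8%, beside 13.9% of all tested genes). The median log2 fold change of the 13 was -0.52. In 11 all hSRY-ON hearts lay below all hSRY-OFF hearts (beside 22.0% of all tested genes). In F1, 3 of 5 genes were lower. Atp5a1, the alpha subunit that alternates with beta around the catalytic head, was at 9.91, 10.13 and 9.44 in hSRY-OFF and at 8.46, 8.15 and 8.62 in hSRY-ON hearts. It fell by 1.42 on the log2 scale (SE 0.21, adjusted p = 0.00255), to 37.5% of the hSRY-OFF level, which is the largest decrease among the members with the processing used. Atp5e, the small epsilon subunit of the central stalk, was at 7.68, 8.08 and 7.47 against 6.72, 6.53 and 6.72, a decrease to 47.0% (-1.09, SE 0.17, adjusted p = 0.00371). Its neighbour in the stalk, Atp5d (delta), changed by -0.68 (SE 0.14, adjusted p = 0.00928), and in all 3 genes the groups were apart. Without background correction the change of Atp5e, a dim probe, was -0.57, and the call remained.

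The beta subunit gene was not called. Atp5b, which carries the catalytic sites, was at 15.34, 15.37 and 15.29 in hSRY-OFF and at 15.39, 15.31 and 15.34 in hSRY-ON hearts, a change of 0.02 (SE 0.11, adjusted p = 0.919). Its groups overlapped, and the 95% confidence interval ran from -0.23 to 0.27. Its probe was at 89.9% of the brightest probe of the array. The interval describes the measured intensity and sets no bound on the transcript, and the part of brightness was not tested. Alpha and beta occur in equal numbers in the finished head, but levels of different probes cannot be set against each other, and the difference between their changes was not tested. Atp5c1, the gamma shaft that turns inside the head, changed by -0.17 (SE 0.12, adjusted p = 0.32), with all hSRY-ON hearts below the hSRY-OFF hearts.

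The c ring is made of identical copies that several genes encode, and 2 of these genes were measured. Atp5g2 was at 12.19, 12.32 and 12.25 in hSRY-OFF and at 11.69, 11.75 and 11.77 in hSRY-ON hearts, lower by a log2 fold change of -0.52 (SE 0.11, adjusted p = 0.012), a call lost without normalization between arrays. Atp5g3 was at 15.07, 15.21 and 15.12 against 14.94, 14.94 and 15.07, a change of -0.15 (SE 0.11, adjusted p = 0.364). The hearts of the groups were well apart for Atp5g2 and overlapped for Atp5g3, and the difference between the paralogs was not tested.

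The peripheral stalk keeps the head from turning with the ring, and 3 of its 4 genes were lower. Atp5h (subunit d) was at 12.75, 13.04 and 12.42 in hSRY-OFF and at 11.60, 11.84 and 11.80 in hSRY-ON hearts (-0.99, SE 0.18, adjusted p = 0.00584). Atp5o, the subunit that joins the stalk to the head and confers sensitivity to oligomycin, changed by -0.82 (SE 0.14, adjusted p = 0.00517), and Atp5f1 (subunit b) by -0.53 (SE 0.11, adjusted p = 0.0121), the latter not called without normalization between arrays. In none of the 3 did the groups overlap. Atp5j, coupling factor 6, was at 14.59, 14.62 and 14.57 against 14.35, 14.37 and 14.37 on its brightest probe (-0.23, SE 0.11, adjusted p = 0.149). Another Atp5j probe gave -0.50 (SE 0.16, adjusted p = 0.0503) and just missed the threshold, and the third was not tested. Neither of the remaining tested Fo genes, which lie beside the ring and help the enzyme to form dimers, was called. The level of Atp5j2 (subunit f) was 15.01, 15.07 and 14.97 against 14.88, 14.83 and 14.94 (-0.13, SE 0.11, adjusted p = 0.398), and Atp5l (subunit g) changed by -0.25 (SE 0.11, adjusted p = 0.126), and in both the groups did not overlap.

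The other 3 members match these complexes by their old symbols and are no core subunits. Atp5s (now Dmac2l) and Atp5sl (now Dmac2) are related proteins, the latter being known for its part in complex I assembly, and Cox4nb (now Emc8) belongs to a membrane protein complex of the endoplasmic reticulum. Atp5s was lower by a log2 fold change of -0.76 (SE 0.11, adjusted p = 0.00292) and Atp5sl by -0.70 (SE 0.20, adjusted p = 0.0403), the latter a call that 7 alternatives ended, including the omission of hSRY-OFF replicate 1 (-0.56) or replicate 2 (-0.67) and that of hSRY-ON replicate 1 (-0.53) or replicate 3 (-0.75). The probes of Cox4nb were at 9.98, 9.91 and 10.20 against 10.11, 9.99 and 10.13 (0.05, adjusted p = 0.822) and at 9.18, 9.25 and 9.07 against 9.19, 9.15 and 9.13 (-0.01, adjusted p = 0.965), with overlap on both. Without these 3 genes, 12 of 33 tested members were lower and 1 was higher.

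**Figure D3:**
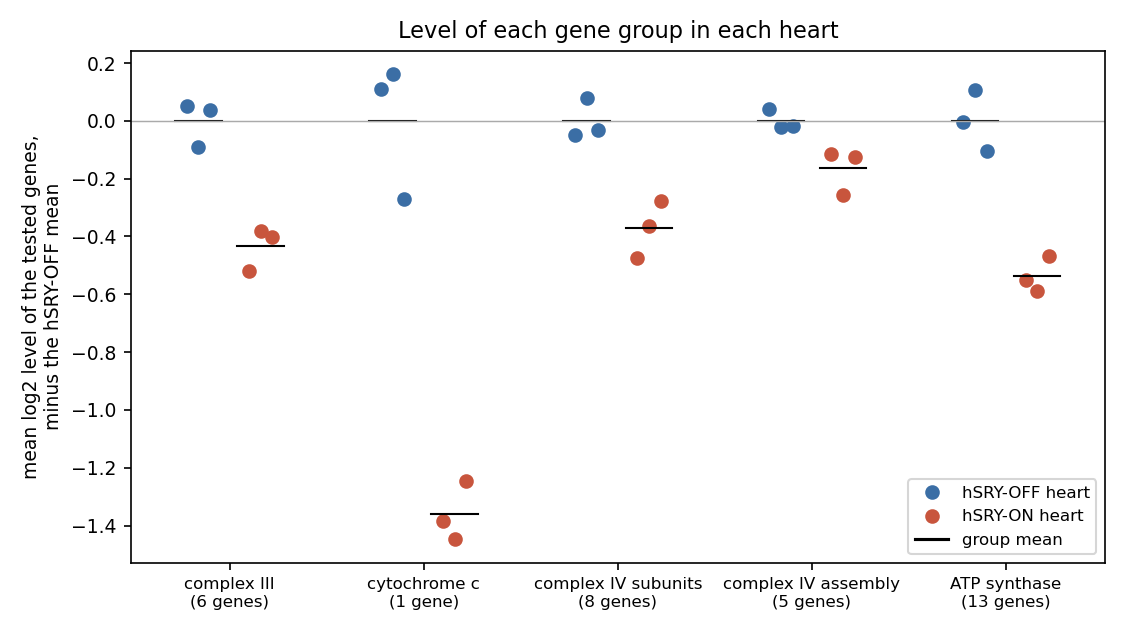
Mean log2 level of the tested genes of each group in each heart, given as the difference from the mean of the 3 hSRY-OFF hearts (vertical axis), blue for hSRY-OFF, red for hSRY-ON, with a line at each group mean. Every hSRY-ON heart lies below every hSRY-OFF heart in all 5 groups, from -0.11 to -0.26 for complex IV assembly to -1.25 to -1.45 for cytochrome c.

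Within the groups the hearts differed little among themselves. The mean level of the ATP synthase genes differed from the hSRY-OFF mean by -0.10 to 0.11 in the control hearts and by -0.59 to -0.47 in those with active hSRY. For complex III the hSRY-ON hearts lay between -0.52 and -0.38, with replicate 1 lowest, and for the subunits of complex IV between -0.48 and -0.28, again with replicate 1 lowest. No hSRY-ON heart reached the controls in any group.

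The changes were also read by the brightness of the probe, with a split chosen after the values were seen. Of the 28 tested structural genes with cytochrome c, 17 were among the brightest 5% of all tested genes. Of these 17, 4 were lower and the median log2 fold change was -0.26, with 16 values below 0. The other 11 held 7 lower genes and had a median of -0.84. Among all of the brightest 5% of genes 17.8% were lower, against 13.7% of the remaining genes. The deposited intensity of Atp5b was 89.9% of the brightest probe of the array, that of Cox6b1 80.9%, that of Atp5g3 73.7% and that of Atp5j2 69.2%. The values for Uqcrc1 and Cyc1, both called lower, were 35.3% and 34.4%, and that for Atp5a1 was 1.71%. The part of brightness in the smaller changes of these genes was not tested.

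**Figure D4:**
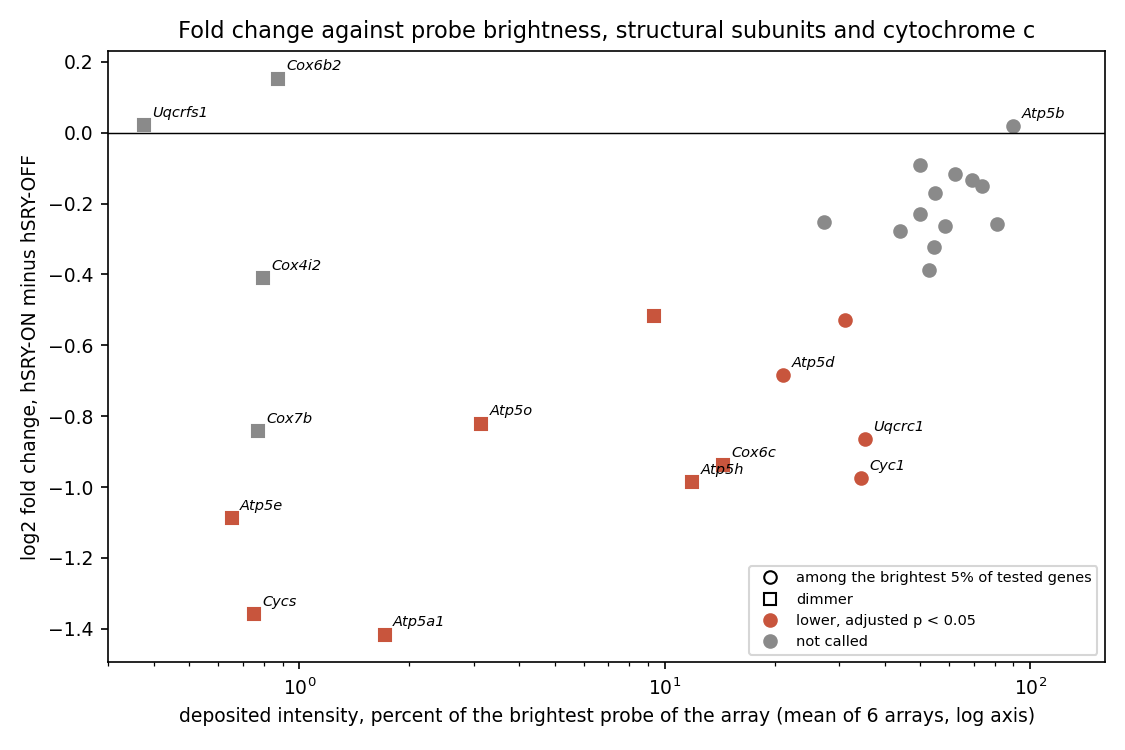
Log2 fold change (vertical axis) of 28 structural genes, cytochrome c included, against the deposited intensity of the probe as a percentage of the brightest probe of its array (horizontal axis, log scale, mean of 6 arrays). Circles are genes among the brightest 5% of tested genes, squares the others, and red marks genes called lower. The points at the bright end lie nearer 0 than most others, up to Atp5b at 89.9%, and the dim probes of Uqcrfs1 and Cox6b2 lie above 0.

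The rest of oxidative phosphorylation was read from lists of the other complexes. Of 32 tested complex I genes 23 were lower (71.9%, beside 13.9% of all tested genes) and none had a value above 0, with a median of -0.55. Of 3 complex II genes 2 were lower (66.7%, beside 13.9% of all tested genes), Sdhb by -1.20 and Sdhc by -0.45 on the log2 scale. Of 6 tested genes listed with the tissue forms of complex IV subunits, which the members leave out, 5 were lower (83.3%, beside 13.9%). Among them the heart and muscle forms Cox7a1, Cox8b and Cox6a2 changed by -1.44, -0.77 and -0.73 and the general form Cox7a2 by -1.14. The remaining lower gene, Cox7a2l, was at -0.43, just under the threshold (adjusted p = 0.0498, limma). Cox6a1, the general counterpart of Cox6a2, was at 0.18 (adjusted p = 0.291). Leaving out any of replicates 1 and 2 of either group left 3 of these 6 lower, and 3 were with the replicate number as a block. The difference in calls between these lists and the members was not tested.

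Among 9 further tested genes for assembly factors, inhibitors and related proteins, 5 were lower (55.6%, beside 13.9% of all tested genes). They were Lrpprc, which stabilizes mitochondrial messages (-1.26, adjusted p = 0.000523), Bcs1l, which inserts the Rieske protein into complex III (-1.13, adjusted p = 0.00143), Tmem70, an assembly factor of the ATP synthase (-0.93, adjusted p = 0.00172), Pet112l and Hccs. Surf1 of complex IV, Ttc19 of complex III, Atpaf2 and the inhibitor gene Atpif1 were not called on their brightest probes. Of the carriers that feed the ATP synthase, the phosphate carrier Slc25a3 was lower by a log2 fold change of -1.09 (adjusted p = 0.00334), and the nucleotide carrier Slc25a5 was at -0.05 (adjusted p = 0.777).

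Markers of cell types moved in part with the groups. The counts stand beside 13.9% of all tested genes that were lower and 14.9% that were higher. Of 11 cardiomyocyte markers 5 were lower (Myh6, Tnni3, Mybpc3, Ryr2 and Pln) and the list had a median of -0.33 (log2). Their summed linear level, made up mostly of the bright probes of Myl2, Myl3, Nppa and Tnnc1, ranged from 263224 to 276563 in hSRY-OFF and from 235104 to 254531 in hSRY-ON hearts. Their mean log2 level differed from the hSRY-OFF mean by -0.11 to 0.08 in hSRY-OFF and by -0.61 to -0.36 in hSRY-ON hearts. Of 9 macrophage markers 6 were higher, and their sum ranged from 6482 to 9101 and from 14382 to 14532. Of 5 smooth muscle and pericyte markers 2 were higher, Acta2 by 0.53 on its brightest probe and Tagln by 1.81. The other Acta2 probes were higher by 1.26, 1.45 and 1.48. Myh11 (-0.42), Pdgfrb (-0.43) and Rgs5 (-0.57) were not called, and the list had a median of -0.42. The sums of these markers, made up mostly of the signal of the brightest Acta2 probe, were 27180 to 32714 and 39845 to 43669. Fibroblast markers (1 of 7 higher, sums of 31550 to 33822 and 28844 to 32146) and endothelial markers (2 of 6 lower and 1 higher, sums of 21197 to 22885 and 20436 to 21980) overlapped in their sums. Erythroid markers were lower in 1 of 5 cases, Hbb-b1 by -1.29 on the log2 scale, and the list had a median of -0.50. Their sums, made up mostly of the signal of the very bright Hba-a1 probe, were 49070 to 61319 and 50853 to 55517. The mean log2 level of these markers differed from the hSRY-OFF mean by -0.41 to 0.49 in hSRY-OFF and by -0.88 to 0.17 in hSRY-ON hearts.

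Markers of tissues next to the heart were also read. Brown fat, which is rich in these complexes, had 2 of 4 tested markers higher, Ucp1 and Adipoq, while Cidea was at -1.05 (adjusted p = 0.0691, limma) with every hSRY-ON heart below the controls and Cfd was at 1.26 (adjusted p = 0.0818). The level of Ucp1, its defining gene, was 4.64, 5.03 and 8.88 in hSRY-OFF and 10.81, 8.80 and 9.94 in hSRY-ON hearts, with hSRY-OFF replicate 3 among the hSRY-ON hearts. The sums over the brown fat markers, made up mostly of the Cidea signal in the hSRY-OFF hearts, were 1868 to 2639 and 1101 to 3656. Skeletal muscle markers were lower in 3 of 4 cases, Acta1 by -3.25, Tnni2 by -1.91 and Ckm by -0.90 (log2), while Mylpf (0.38) was not called. The sums, made up mostly of the Ckm signal, were 19587 to 21948 and 8158 to 10873. Myh1, Myh2, Myh4 and Tnnt3 were above background on no array. Whether the lower transcripts came from skeletal muscle or from the heart muscle itself was not tested. Liver markers were higher in 2 of 2 cases (sums of 219 to 288 and 1096 to 2970), with Alb above background on no array. The part of these cells in the changes of the members was not tested.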

How the data were processed

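Hearts of 3 hSRY-ON and 3 hSRY-OFF male mice (biological triplicates per the methods) were grouped by the sample titles. The authors deposited non-normalized mean bead intensity for each probe and array (MouseRef-8 v2.0 BeadChip) and a detection p-value against the negative controls of the array. The program used for the bead summaries is not given in the sources used here. The methods name the R package TCC without settings, and the submitters' processing notes name limma.

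Background was corrected with neqc of limma 3.58.1 in R 4.3.3 (offset 16), followed by quantile normalization and log2. Probes with a detection p-value under 0.05 on at least 3 of 6 arrays were tested with lmFit and eBayes, with group as the only term, two-sided, and adjusted by Benjamini-Hochberg over 12970 probes. Figures used Python 3.11.15 and matplotlib 3.10.9. The steps were tested on simulated data. Precision is limited by the number of arrays, and an exact two-sided permutation test of 3 hearts against 3 cannot give a p below 0.1. No arrays were identical.

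The members and gene lists were chosen with earlier results of these data known. All members are named by role group. Values in each heart are given for Cycs, the 2 largest decreases and the 2 smallest changes or largest increases of each group, members called higher, paralogs and genes whose probes differ. Alternatives changed the background correction, normalization, probe filter, variance model, probe choice or replicate block, or left out 1 heart. Probe sequences were not used, so matches of a probe to other transcripts were not tested.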

Additional observations from a re-analysis of the deposited data

How the results depend on the processing

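Of the 15 called member genes, 10 kept their call under every alternative. Atp5f1, Atp5g2, Atp5sl and Cox19 lost it under at least 1 alternative with all hearts, and Atp5sl, Cox19 and Cox6c under at least 1 omission of a heart. Without normalization between arrays 1897 probes were differentially expressed in place of 3567, 38.5% of them higher in place of 50.1%, all tested genes had a median of -0.11 and the members one of -0.54 (log2), 2 complex IV subunit genes were lower and 0 members were higher. Scaling to the median of the detected probes gave a member median of -0.44 and 2 lower complex IV subunit genes. Without background correction, and likewise with an intensity trend and robust eBayes, 23 members were lower, 4 of them in complex III, 5 among the complex IV subunits and 2 in complex IV assembly. The normexp correction with an offset of 50 gave 3 and 2 for the last of these groups. Detection on all arrays, detection at 0.01 and the mean over the probes of a gene each gave 2 and 2. The causes of these differences were not tested.

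When single hearts were omitted, the differentially expressed probes numbered 2206 (without hSRY-OFF replicate 1) to 3669 (without hSRY-OFF replicate 3), with 2255 without hSRY-ON replicate 1. The lower members numbered 12 to 15, the higher members 0 to 1, with 0 when hSRY-OFF replicate 1, hSRY-OFF replicate 2 or hSRY-ON replicate 1 was omitted. The lower complex IV subunit genes numbered 0 to 2, with 0 without hSRY-OFF replicate 1 or hSRY-ON replicate 1, where Cox6c lost its call, and 2 without hSRY-OFF replicate 3 or hSRY-ON replicate 3. The lower complex III genes numbered 2 to 3, with 3 without hSRY-OFF replicate 2. The median of the members ranged from -0.38 to -0.29.

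Members that were not called changed sign in some settings. Without normalization Atp5b was at -0.034, Cox4nb at -0.046 and Uqcrfs1 at -0.073. The dimmer probe of Cox4nb was at 0.0053 with median scaling and at 0.068 with the scaling in the manner of TCC. With each heart left out, the ranges were -0.0034 to 0.036 for Atp5b, -0.015 to 0.13 for Cox4nb, -0.053 to 0.034 for its dimmer probe, -0.19 to 0.016 for Cox5a, -0.17 to 0.16 for Uqcrfs1 and -0.27 to 0.069 for the dimmer probe of Cox18. The labels do not say whether the replicate numbers pair the hearts. The deviations of hearts with the same number correlated at -0.03, 0.04 and -0.07, which cannot settle whether such hearts were littermates or handled together. With the replicate number as a block, 2842 probes were differentially expressed, 13 members were lower and 1 was higher. Dim probes such as that of Uqcrfs1 limit what can be detected, and so may the brightest probes, whose part was not tested.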
